A study of Mus musculus with 12 samples.

Results

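The pyramidal cell body layer of hippocampal field CA2 was compared with that of field CA1 in the mouse, on 3 arrays each. These 6 arrays were taken by their titles from a set of 12, and the comparison covered 30142 genes, each represented by 1 array feature. The other 6 arrays hold the dendritic layers (stratum radiatum) of the same fields and serve here as a second look at the same regions.

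All arrays came from 3 male mice aged 6 to 8 weeks, taken from separate litters and labelled as Amigo2-GFP on C57BL/6J, called Amigo2-EGFP in the protocols. Every group carries this reporter, including the CA1 samples, and animals without it were not analysed here. The layers were cut by laser capture from frozen brain sections, and RNA from about 20 caps of a layer was pooled into 1 sample. A captured layer is tissue rather than sorted cells, so glia, vessels and interneurons of the layer are included. Values are log2 expression after RMA, a standard procedure that removes background, brings arrays to a common scale and combines probes. A log2 difference of 1 is a 2-fold difference, and group values are means ± SD of 3 arrays.

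CA1 and CA2 are neighbouring strips of the same layer of excitatory pyramidal neurons. CA1 neurons are driven mainly by CA3 axons and show robust long-term potentiation, while CA2 neurons resist it at their CA3 inputs, carry dense perineuronal nets and receive vasopressin input that matters for social memory. CA2 neurons are usually recognized by Rgs14, Pcp4 and Amigo2, and CA1 neurons by Wfs1 and Fibcd1.

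All 6 CA1 arrays of the study share one run number, 938, and all 6 CA2 arrays another, 907, so in every value below the region cannot be told apart from the run. Control RNAs differed with them. Poly-A controls read 10.89 ± 0.20 on the CA1 and 8.66 ± 0.11 on the CA2 cell body arrays, hybridization controls 12.47 ± 0.03 and 12.12 ± 0.04, and the 5222 negative normalization features averaged 5.06 ± 0.03 and 4.78 ± 0.04. Pairs of arrays from 1 group had correlations of 0.995 to 0.997 over genes, and pairs across the groups 0.979 to 0.984. Array 1 of CA2 cell bodies held transcripts of oocytes: the mean of 20 oocyte genes was 7.26 there and 5.61 to 5.77 on arrays 2 and 3, against 5.39 to 5.43 in CA1. None of these genes was called in the comparison (0 of 20), but array 1 widens their spread, so this does not show that the comparison is free of them. Without the arrays of replicate number 1, 3 of the 20 were called higher in CA2. Their differences ran from 0.11 to 1.67, and 14 of 20 did not overlap, with CA2 above (23.9% of all genes). CA2 dendritic arrays 2 and 3 held the same transcripts. These and array 1 are called the arrays with oocyte transcripts below, and values without them are given for some results. CA2 cell body arrays 2 and 3 were kept, though they also read above CA1.

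CA2 cell bodies differed from CA1 cell bodies in 6367 of 30142 genes at an adjusted p under 0.05 (21.1% of genes), in limma with Benjamini-Hochberg adjustment over all genes, as for every adjusted p below. In CA2, 3205 genes (10.6%) were higher and 3162 (10.5%) lower. Calls were more frequent at higher levels, up to 44.9% of the brightest of 5 equal bins of genes. Counts of list members below are to be read beside these shares. Most differences were small. At least 2-fold, 268 genes (0.889%) were higher and 359 (1.19%) lower, at least 4-fold 51 and 50, and at least 8-fold 12 and 2. The median difference over all genes was 0.02, and the median SD of a gene was 0.0751 in CA1 and 0.0721 in CA2. The even split rests on the authors' scaling, since 70.4% of called genes were higher in CA2 after a further quantile normalization and 74.3% after median centring, which moved the median of all genes to 0.10 and 0.12. The arrays of the groups did not overlap in 23.9% of genes with CA2 above and 19.8% with CA2 below. Without 1 replicate number the count of 6367 lay between 3451 (without number 3) and 4147 (without number 1), and without the arrays with oocyte transcripts it was 4743.

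**Figure D1:**
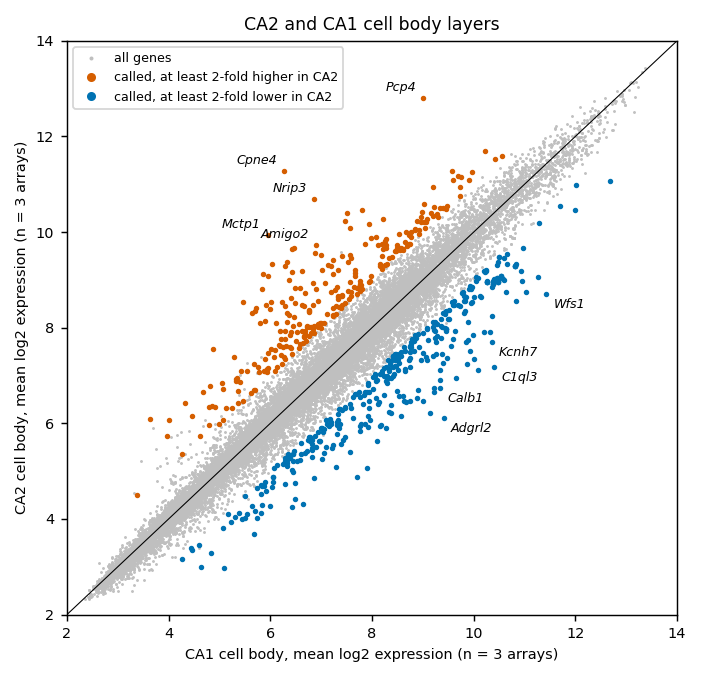
Mean log2 expression (RMA) of each of 30142 genes in CA1 cell bodies (x axis) and CA2 cell bodies (y axis), 3 arrays each, with the line of equal values. Orange points are the 268 genes called and at least 2-fold higher in CA2, blue points the 359 at least 2-fold lower, and Cpne4 lies farthest above the line, by 5.01.

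The region markers were chosen with earlier results of these data known, so they describe the labelled regions and do not test them. Of 26 genes listed as CA2 neuron markers 24 were measured. All 24 were higher in CA2 cell bodies (10.6% of all genes were), 17 of them at least 2-fold, with a median difference of 1.42. The list mean was 8.80, 8.86 and 8.88 on the CA2 arrays and 7.06 to 7.13 on the CA1 arrays. Of 14 CA1 neuron markers measured, 10 were lower in CA2 (10.5% of all genes were) and none was called higher, with a median of -1.44. Their list mean was 9.17, 9.17 and 9.21 in CA1 and 7.62, 7.85 and 7.81 in CA2. The groups did not overlap for either list. The 4 uncalled CA1 markers were Pou3f1 (-0.26, adjusted p = 0.089), Lefty1 (-0.07), Dcn (-0.15) and Spink8, which read 10.40, 10.36 and 10.34 in CA1 and 10.79, 10.81 and 10.68 in CA2 (adjusted p = 0.15) and was called higher without replicate number 1.

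Amigo2, the adhesion gene behind the reporter, read 6.81, 6.89 and 7.01 in CA1 and 9.60, 9.65 and 9.94 in CA2. The lowest CA2 array was far above the highest CA1 array, and the difference was 2.83 (SE 0.11, adjusted p = 1.8e-07), 7.1-fold. Rgs14, a scaffold that dampens G protein signalling and limits potentiation in CA2, read 8.47, 8.50 and 8.52 in CA1 against 9.53, 9.66 and 9.81 in CA2, a difference of 1.17 (SE 0.07, adjusted p = 2.0e-06). Pcp4, a small protein that regulates calmodulin, read 9.70, 8.70 and 8.63 in CA1 and 12.78, 12.83 and 12.78 in CA2, 13.8-fold higher. CA1 array 1 stood 1 log2 unit above the other CA1 arrays for Pcp4, while the CA2 arrays were nearly equal. Wfs1, the endoplasmic reticulum protein wolframin, fell from 11.50, 11.33 and 11.44 in CA1 to 8.40, 8.90 and 8.81 in CA2, a difference of -2.72 (SE 0.15, adjusted p = 1.2e-06). Fibcd1 was lower by 1.94 on the log2 scale, a difference of -1.94 (adjusted p = 1.2e-06).

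The sequences upstream of 2 genes higher in CA2 and 2 genes higher in CA1 show what lies in front of these region markers. They are the 250 bases before the annotated start in RefSeq (GRCm38.p6), 5′ to 3′ on the strand of the gene: Pcp4 at chr16:96467356-96467605 (plus strand), Amigo2 at chr15:97247288-97247537 (minus), Wfs1 at chr5:36988983-36989232 (minus) and Itpka at chr2:119742087-119742336 (plus). Capitals mark the GC box GGGCGG on either strand and, in Wfs1 alone of the 4, the E-box CAGATG on the other strand.
Pcp4: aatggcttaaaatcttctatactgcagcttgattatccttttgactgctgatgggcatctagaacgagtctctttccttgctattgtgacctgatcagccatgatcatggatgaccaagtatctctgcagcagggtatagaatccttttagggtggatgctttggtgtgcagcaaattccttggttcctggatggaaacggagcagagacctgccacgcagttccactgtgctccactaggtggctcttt
Amigo2: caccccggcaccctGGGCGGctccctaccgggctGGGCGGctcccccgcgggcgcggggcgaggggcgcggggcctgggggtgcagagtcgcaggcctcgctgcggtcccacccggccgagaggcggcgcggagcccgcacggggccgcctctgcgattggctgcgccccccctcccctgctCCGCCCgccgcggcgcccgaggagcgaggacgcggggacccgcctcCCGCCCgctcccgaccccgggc
Wfs1: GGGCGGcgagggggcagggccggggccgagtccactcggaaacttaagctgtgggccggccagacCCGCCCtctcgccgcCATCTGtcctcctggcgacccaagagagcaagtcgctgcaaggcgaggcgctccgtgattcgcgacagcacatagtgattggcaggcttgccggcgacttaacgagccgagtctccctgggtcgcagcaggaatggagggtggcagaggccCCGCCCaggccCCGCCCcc
Itpka: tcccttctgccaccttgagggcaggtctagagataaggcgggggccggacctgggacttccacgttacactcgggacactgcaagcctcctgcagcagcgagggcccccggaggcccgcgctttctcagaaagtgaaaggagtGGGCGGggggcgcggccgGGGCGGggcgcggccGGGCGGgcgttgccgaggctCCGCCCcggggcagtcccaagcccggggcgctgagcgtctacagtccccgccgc
Amigo2, Wfs1 and Itpka each held 4 GC boxes, and the window of Pcp4 held none of the motifs searched. Both strands were searched for the GC box, the E-box forms CAGATG and also CAGCTG and also CACGTG, the cAMP response element TGACGTCA and the TATA box TATAAA, and no matches overlapped in these windows. The GC box lay in 55.8% of 190 promoters of genes at least 2-fold higher in CA2, 55.5% of 146 at least 2-fold lower, 41.4% of 17970 measured genes and 32.7% of all 32851 promoters in the table. The TATA box letters lay in 8.42% of the first set, 8.90% of the second and 12.4% of all promoters, and CAGATG in 12.1%, 9.59% and 14.4%. CAGCTG lay in 11.6% of the first set, 11.0% of the second and 12.4% of measured genes. Of the first set, the second and measured genes, CACGTG lay in 9.47%, 6.16% and 6.67%, and TGACGTCA in 1.58%, 2.74% and 1.96%. No test was made of these shares, and a match is a description of the letters only.

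The largest rise was in Cpne4, a calcium-dependent membrane-binding copine. It read 6.40, 6.19 and 6.21 in CA1 and 11.33, 11.23 and 11.26 in CA2, a difference of 5.01 (SE 0.16, adjusted p = 5.2e-08) or 32.1-fold. Mctp1, a calcium-binding protein of the endoplasmic reticulum, read 5.86, 5.96 and 6.03 against 10.03, 9.89 and 9.90, 15.9-fold higher. Both genes sat near the middle of all genes in CA1 and near the top in CA2, with no overlap. Nrip3 differed by 3.82 (6.87, 7.07 and 6.66 against 10.71, 10.67 and 10.68). Cacng5, an auxiliary subunit of AMPA-type glutamate receptors, read 6.44, 6.45 and 6.41 in CA1 and 9.70, 9.61 and 9.62 in CA2, a difference of 3.21 (SE 0.10, adjusted p = 4.0e-08). Its SD was 0.02 in CA1 and 0.05 in CA2, and the regions lay far apart. Lrrtm4, a postsynaptic organizer of excitatory synapses, rose by 3.27, and Fstl5, a secreted follistatin-like protein, by 3.29. Among the other large rises were Ccdc3 (3.20), Kctd4 (3.11), the kinase gene Map3k15 (3.08), Sostdc1, a secreted antagonist of BMP and Wnt signals (3.03), the sialyltransferase gene St8sia6 (3.01), Tmem215 (2.98) and Prdm8, a transcriptional repressor (2.88).

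**Figure D2:**
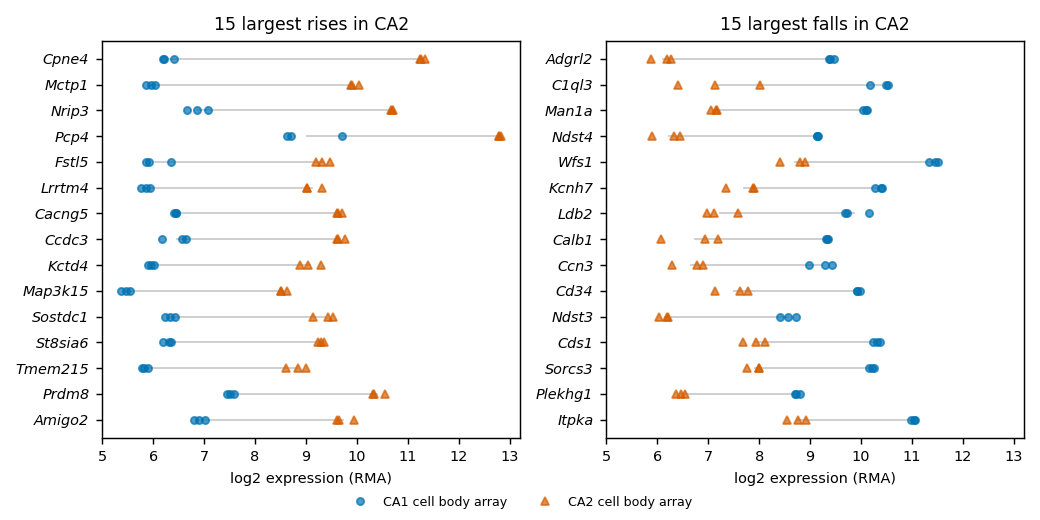
Log2 expression (RMA, x axis) of the 15 genes that rose most and the 15 that fell most in CA2, 1 point per array, CA1 as blue circles and CA2 as orange triangles, with a grey line between group means. The 2 groups of 3 arrays do not overlap for any gene, which the rule for naming them required, and C1ql3 and Calb1 spread most in CA2.

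The largest fall was in Adgrl2 (latrophilin 2), an adhesion receptor that CA1 neurons use at their synapses. It read 9.37, 9.47 and 9.39 in CA1 and 5.88, 6.20 and 6.27 in CA2, a difference of -3.29 (SE 0.09, adjusted p = 3.5e-08). C1ql3, a secreted synaptic protein of the C1q family, read 10.17, 10.53 and 10.48 against 6.40, 8.01 and 7.13. Its CA2 arrays differed among themselves by more than those of any other gene in the group of 15, with an SD of 0.81, and array 1 was lowest. The calcium buffer Calb1 (calbindin) read 9.35, 9.32 and 9.33 in CA1 and 6.08, 7.20 and 6.94 in CA2, again with CA2 array 1 lowest and no overlap. Man1a, a Golgi mannosidase, read 10.04, 10.12 and 10.09 against 7.05, 7.17 and 7.15, and Itpka, the kinase that phosphorylates inositol trisphosphate in spines, 11.03, 10.98 and 11.06 against 8.54, 8.92 and 8.77. The falls of Man1a and Itpka were -2.96 and -2.28. Others among the 15 were the potassium channel gene Kcnh7 (-2.65), the transcription cofactor gene Ldb2 (-2.63), Ccn3 (-2.57), Cd34 (-2.42), the phospholipid synthesis gene Cds1 (-2.40), the sorting receptor gene Sorcs3 (-2.29) and Plekhg1 (-2.28). All 30 of these rises and falls kept their call in each of up to 20 alternative analyses, including every omission of a cell body array.

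Genes known as markers of CA3 neurons were mostly higher in CA2 than in CA1. Of 15 measured, 13 were higher and 1 was lower, with a median of 0.53 (0.52 to 0.58 without 1 array or replicate number, 0.62 and 0.63 under the other scalings). Besides Cpne4, they included the kainate receptor gene Grik4 (7.08 ± 0.09 against 8.94 ± 0.06), the thyroid deiodinase gene Iyd (1.74), the kinase gene Prkcd (1.32) and Socs2 (1.01). The exception was Nell1, a secreted protein, which read 9.27, 9.25 and 9.09 in CA1 and 7.49, 7.35 and 7.40 in CA2. Of 14 markers of dentate granule cells, 6 were higher and 2 lower, and the median was 0.27. Il16, a cytokine gene, was 3.9-fold higher in CA2 with arrays at 6.32, 6.33 and 6.32 against 8.27, 8.29 and 8.35. The intestinal lactase gene Lct fell by 2.22 and Calb1, also on this list, by 2.59, while the granule cell transcription factor gene Prox1 read 6.41 ± 0.13 and 6.54 ± 0.34 (adjusted p = 0.67). After median centring 10 of these 14 were called higher.

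**Figure D3:**
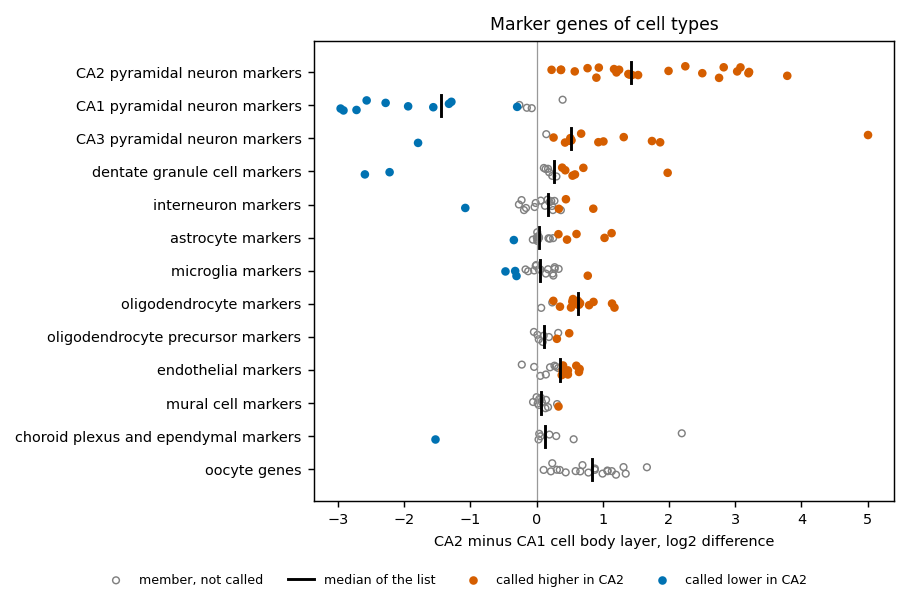
Log2 difference (x axis, CA2 minus CA1 cell body layer) of each measured marker gene, 1 row per cell type, with filled points for called genes, open points for genes not called and a bar at the median. CA2 markers lie to the right and CA1 markers to the left, and oligodendrocyte markers lie right of 0 with a median of 0.63.

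Markers of glia and vessels, which the layer also holds, were compared because a captured layer can hold more or fewer of these cells. Fewer cells of a type and less RNA per cell cannot be told apart in such samples. Of 15 oligodendrocyte markers, 13 were higher in CA2 and none lower, with a median of 0.63. The myelin genes Mobp (7.12 ± 0.20 against 8.29 ± 0.10) and Ermn (5.93 ± 0.08 against 7.07 ± 0.05) differed most, while Mbp read 8.33 ± 0.20 and 8.40 ± 0.07 (adjusted p = 0.72). The list mean lay at 7.03 to 7.19 in CA1 and 7.66 to 7.76 in CA2, and the count of 13 was 7 without replicate number 2, and 8 without number 3 or without the arrays with oocyte transcripts. Of 16 endothelial markers, 8 were higher and none lower (median 0.35, list mean 6.71 to 6.80 against 7.04 to 7.16), among them the glucose transporter gene Slc2a1 (0.64) and the thyroid hormone transporter gene Slco1c1 (0.65). The part of these cells in the neuronal values was not tested.

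The other non-pyramidal lists moved less. Of 17 astrocyte markers, 5 were higher and 1 was lower (list mean 7.67 to 7.70 against 7.91 to 7.94), and 3 were higher without replicate number 3. The neurotensin receptor gene Ntsr2 (9.07 ± 0.06 against 10.20 ± 0.03) and S100b (8.61 ± 0.15 against 9.63 ± 0.07) led this list. Its median of 0.04 was 0.06 to 0.20 without 1 cell body array or replicate number (0.20 without CA2 array 3), and 0.12 and 0.14 after quantile normalization and median centring. Of 18 microglia markers, 1 was higher (Ctss, 0.77) and 3 were lower (22.2% called, against 21.1% of all genes), and the list mean was 6.84 to 6.89 against 6.89 to 6.94. The count of 3 was 0 or 1 without any single replicate number. After quantile normalization 5 were higher and none lower, and after median centring 7 and 1, so no direction is given for this list. Of 19 interneuron markers, 3 were higher and 1 was lower, the same share as over all genes (21.1%), and 8 and 9 were higher under the other scalings. The receptor kinase gene Kit rose by 0.86 and the neuropeptide gene Vip fell by 1.08, and Kit alone was called higher without replicate number 2 or 3. The range of the interneuron list mean was 7.65 to 7.73 in CA1 and 7.75 to 7.83 in CA2.

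Of 9 oligodendrocyte precursor markers 2 were higher (1 without replicate number 2 or 3), and of 12 mural cell markers 1 was higher (0 without number 2 or 3). The shares called were 22.2% and 8.33%, against 21.1% of all genes. Of 8 choroid plexus and ependymal genes 1 was lower, Kl (klotho), at 8.65 ± 0.05 in CA1 and 7.13 ± 0.32 in CA2. Ttr, the abundant transthyretin gene of choroid plexus, read 7.39 ± 0.44 in CA1 and 9.58 ± 2.30 in CA2 (adjusted p = 0.17), and CA2 array 3 had the highest mean of this list, 6.97 against 6.11 to 6.34 on the other cell body arrays. Neither of the 2 red blood cell genes measured was called.

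Genes common to pyramidal neurons were read at high levels in both regions. The kinase gene Camk2a read 12.25 ± 0.02 in CA1 and 12.11 ± 0.02 in CA2 (adjusted p = 0.14), and the difference was -0.13, with the opposite sign (0.03) after quantile normalization. Map2, a microtubule protein of dendrites, was lower in CA2 by a small step, from 10.69 ± 0.04 to 10.25 ± 0.05 (adjusted p = 0.0011). Of 28 transcription factor genes of pyramidal neurons, 6 were higher and 7 lower. The share called, 46.4%, was near the 44.9% of the brightest bin of genes, where the median level of this list lay. Sox5, which shapes neuronal subtypes, rose by 1.15, Lhx2 by 0.51 and Mef2a by 0.44, while Lmo3 fell by 0.85, Bcl11a by 0.54 and Meis2 by 0.46. The 6 were 3 without CA2 array 3 or replicate number 3 and 10 after median centring, and the 7 were 4 without number 2, when Neurod6 (-0.48) lost its call.

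Genes for AMPA receptors, which carry fast excitatory transmission, differed in both directions among pore and among auxiliary subunits. Of 14 pore and auxiliary subunit genes, 4 were higher and 4 lower in CA2, and the largest differences were in auxiliary subunits, which set receptor trafficking and gating. Against the rise of Cacng5, Cacng3 fell from 10.82, 10.86 and 10.82 to 8.18, 8.83 and 8.69, a difference of -2.27 (SE 0.15, adjusted p = 5.1e-06). The 2 members of 1 auxiliary family thus stood on opposite sides, and neither overlapped between regions. Cnih3 (cornichon 3) fell by 2.13, from 9.25, 9.55 and 9.36 to 7.22, 7.31 and 7.24, Gsg1l fell by 0.80 and the pore subunit gene Gria1 by 0.36, a call lost in 1 alternative. Shisa9 rose by 0.70 and the pore subunit gene Gria4 by 0.64.

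Of 6 NMDA receptor genes, whose channels admit the calcium that starts potentiation, 3 were lower and none higher. Grin2a read 11.48, 11.41 and 11.42 in CA1 and 10.59, 10.62 and 10.65 in CA2, a difference of -0.82 (SE 0.08, adjusted p = 5.1e-05). Grin3a fell by 0.72 and Grin2b by 0.48, and the list median was -0.28. Of 7 kainate receptor genes, 2 were higher: Grik4, given above, and the auxiliary subunit gene Neto1, at 9.05, 9.39 and 9.16 against 11.08, 10.81 and 10.93. Grik5 was the 1 called lower, by -0.27, a call lost in 11 alternatives. Of 8 metabotropic glutamate receptor and Homer scaffold genes 4 were lower, 2 of them after median centring or without replicate number 1 or 2, and 1 was higher. Grm3 fell from 8.74 ± 0.17 to 7.18 ± 0.06, Homer1 fell by 0.65 and Homer3 rose by 0.52. Of 13 receptor subunit genes for the inhibitory transmitter GABA, 3 were higher and 4 lower, with Gabrg1 (0.83) and Gabrb1 (0.70) up and Gabrg3 (-0.94) and Gabbr1 (-0.36) down.

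Potassium channel genes differed in both directions. Of 41 potassium and HCN channel genes, 11 were higher and 13 lower. Kcnq5, a subunit of the M current, read 8.34, 8.26 and 8.23 in CA1 and 9.69, 9.55 and 9.75 in CA2, while its relative Kcnq3 fell by 1.10. Kcna1, an axonal potassium channel, rose by 1.35 (9.05, 8.92 and 8.92 against 10.34, 10.27 and 10.32), and Kcnab1, a beta subunit for channels of that family, fell by 2.11 (10.40, 10.27 and 10.41 against 8.04, 8.41 and 8.30). Each of these genes kept the regions apart on all arrays. Kcnh1 rose by 1.27, opposite to Kcnh7 of the same family, and Pex5l, which helps place HCN channels in dendrites, fell by 1.88. The 11 were 7 without CA1 array 3, CA2 array 2 or 3, or replicate number 1.

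Of 21 sodium and calcium channel genes, 5 were higher and 7 lower, 4 of them without replicate number 1. The calcium channel subunit gene Cacna2d3 rose from 9.97, 10.01 and 9.90 to 11.24, 11.25 and 11.25, and the L-type channel gene Cacna1c by 1.01. Scn1a rose by 0.78, and Scn3b, an auxiliary sodium channel subunit, fell from 10.96, 10.88 and 10.92 to 9.09, 9.26 and 9.22. The T-type channel genes Cacna1g and Cacna1i fell by 0.84 and 0.76. Medians of the AMPA, potassium and sodium or calcium lists were -0.02, -0.06 and -0.05 and changed sign under both other scalings, to 0.02, 0.05 and 0.02 after quantile normalization, so no direction is given for these lists as wholes.

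**Figure D4:**
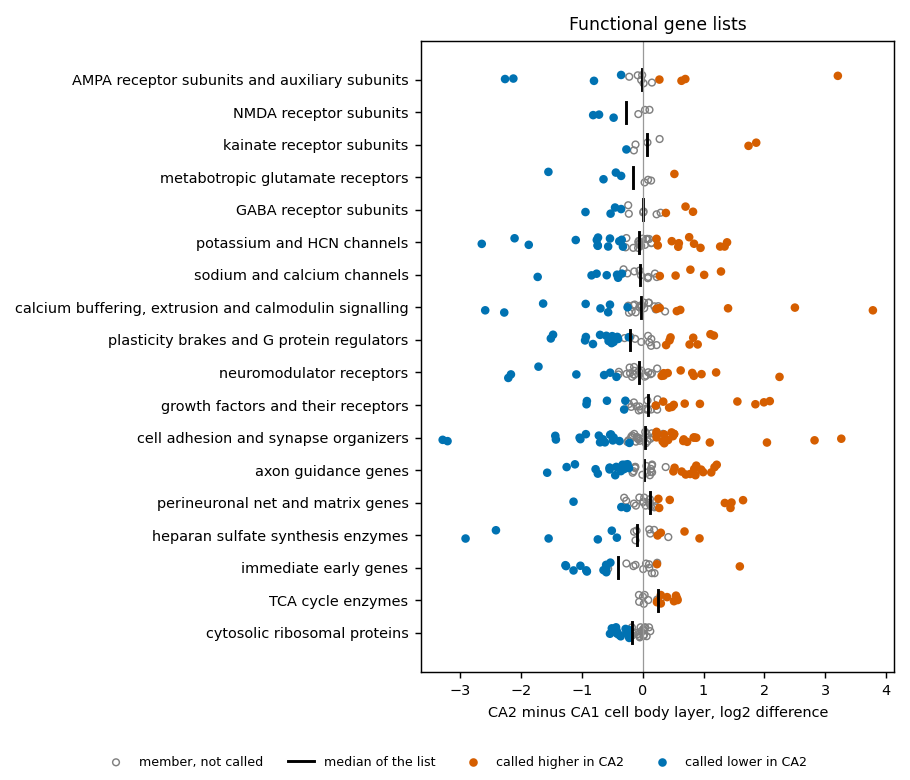
Log2 difference (x axis, CA2 minus CA1 cell body layer) of each measured member of 18 functional gene lists, with filled points for called genes, open points for genes not called and a bar at the median. Most lists spread to both sides of 0, and immediate early genes (median -0.40) and TCA cycle enzymes (median 0.25) lie mostly on 1 side.

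Of 35 genes that buffer, pump or sense calcium, 7 were higher and 8 lower. The share called, 42.9%, was near the 44.9% of the brightest bin of genes, where the median level of this list lay. Besides Pcp4 and Calb1 at the extremes, the calcium-binding Necab2 read 7.58, 7.45 and 7.69 in CA1 and 9.94, 10.08 and 10.21 in CA2, a difference of 2.50 (SE 0.08, adjusted p = 4.0e-08), and its relative Necab1 fell by 1.64. Camk4, a calmodulin kinase of the nucleus, rose from 9.80, 9.73 and 9.70 to 11.17, 11.11 and 11.16. The sensor gene Ncs1 rose by 0.62, and the release channel gene Ryr3 fell by 0.94. The 7 were 4 without replicate number 3 and 11 after quantile normalization.

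Of 32 genes listed as brakes on plasticity or regulators of G proteins, 8 were higher and 15 lower (median -0.22). The list also holds Ras exchange factors and protein kinases C, so these counts do not describe brakes alone. The phosphatase genes Ptpn5 (STEP, 0.77) and Dusp5 (0.90), both of which oppose MAP kinases, were higher, and Dusp6, another MAP kinase phosphatase, fell by 1.48. Related pairs parted again. Rasgrf2 rose by 1.11 while Rasgrf1, a calcium-activated Ras exchange factor, fell from 12.21, 12.17 and 12.16 to 11.21, 11.22 and 11.26. Prkca rose by 0.83 while Prkcb, another protein kinase C, fell from 10.88, 10.81 and 10.83 to 9.32, 9.42 and 9.24. Rgs2 fell by 0.94. The 8 were 5 without replicate number 3.

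Receptors for neuromodulators included some of the larger differences. Of 35 measured, 10 were higher and 7 lower. The vasopressin receptor gene Avpr1b read 5.87, 5.90 and 5.89 in CA1 and 7.00, 7.19 and 7.09 in CA2, a difference of 1.21 (SE 0.06, adjusted p = 1.0e-06), and the oxytocin receptor gene Oxtr rose by 0.84 and the cholecystokinin receptor gene Cckbr by 0.97. Serotonin receptors split. Htr7, which raises cAMP, read 5.86, 5.78 and 6.04 in CA1 and 7.94, 8.11 and 8.38 in CA2 (4.8-fold). Htr1a, which lowers cAMP, fell from 9.35, 9.33 and 9.30 to 6.90, 7.33 and 7.11 (4.6-fold lower), Htr5b from 8.23, 8.79 and 8.88 to 6.35, 6.50 and 6.54, and Htr1b by 1.72. Neither Htr7 nor Htr1a overlapped between regions. The somatostatin receptor gene Sstr4 fell by 1.09. The 10 were 6 without replicate number 2 or 3.

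Of 15 steroid, thyroid and related nuclear receptor and response genes, 5 were higher and 3 lower. The 2 receptors for corticosteroids moved apart. Nr3c1, the glucocorticoid receptor, fell from 8.68, 8.81 and 8.82 to 7.44, 7.70 and 7.66, a difference of -1.17 (SE 0.10, adjusted p = 1.9e-05). Nr3c2, the mineralocorticoid receptor, read 10.02, 9.89 and 10.01 against 10.35, 10.39 and 10.29, a difference of 0.37 (adjusted p = 0.0033), and its call was lost in 1 alternative. Fkbp5, which binds the glucocorticoid receptor complex and is induced by it, rose by 0.69, Hsd11b1, which regenerates active glucocorticoid, by 0.52 and Rorb by 1.02. The thyroid hormone receptor gene Thrb fell by 1.09 and the clock gene Per1 by 0.56.

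Growth factor genes were more often called higher than lower, with 11 and 5 of 31 (8 to 9 and 3 to 5 without 1 array or replicate number). Fgf5 read 5.99, 6.11 and 6.22 in CA1 and 7.91, 8.21 and 8.18 in CA2, and Tgfb2 7.24, 7.76 and 7.22 against 9.53, 9.45 and 9.51. The insulin-like growth factor receptor gene Igf1r rose by 1.85, Hgf by 1.56 and Fgf2 by 0.94. The binding protein gene Igfbp4 (-0.93), Fgf11 (-0.92) and the neurotrophin receptor gene Ntrk3 (-0.59) were lower.

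Of 25 genes of perineuronal nets and matrix, 7 were higher and 3 lower. Acan (aggrecan), the core proteoglycan of the nets, read 6.33, 6.18 and 6.35 in CA1 and 7.90, 7.93 and 7.98 in CA2, a difference of 1.65 (SE 0.07, adjusted p = 2.8e-07). The link protein gene Hapln4 read 8.27 on each CA1 array and 9.68, 9.75 and 9.76 in CA2. Vcan (versican) rose by 1.44 and the protease gene Adamts1, which cleaves these proteoglycans, by 1.35. Tnr (tenascin R), a cross-linker of the nets, fell from 9.56, 9.46 and 9.51 to 8.32, 8.33 and 8.46. The counts were 4 higher without CA2 array 2, replicate number 2 or 3 or the arrays with oocyte transcripts, and 1 lower without CA1 array 2, CA2 array 1 or 3, or any single number.

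Adhesion genes and synapse organizers formed a large group with members at both extremes. Of 61, 21 were higher (13 without replicate number 2) and 17 lower. Besides Lrrtm4, Amigo2, Adgrl2 and C1ql3, the cadherin gene Cdh9, which organizes synapses of CA3 and dentate neurons, rose from 6.66, 6.43 and 6.35 to 8.75, 8.31 and 8.51. Flrt3, a ligand of latrophilins, rose by 1.10. The teneurin genes Tenm3 and Tenm2, whose proteins also bind latrophilins, fell by 1.44 and 1.43. Thus the receptor Adgrl2 and these 2 ligand genes were lower in CA2 and the ligand gene Flrt3 was higher.

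Of 44 axon guidance genes, 13 were higher and 16 lower. Robo1, the receptor for Slit proteins, read 8.91, 8.85 and 8.80 in CA1 and 10.06, 10.02 and 10.02 in CA2, and its ligand gene Slit2 rose by 1.13. Plxnc1 rose by 1.22 and Sema3c by 0.99. The ephrin gene Efnb2 fell from 8.77, 8.62 and 8.58 to 7.02, 7.21 and 7.02, Plxnd1 fell by 1.25, and the ephrin receptor genes Epha3 and Ephb3 by 1.12 and 0.78. The 16 were 9 to 10 without CA1 array 1 or 3, CA2 array 1, or replicate number 1 or 3, and 10 under the other scalings.

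Of 17 enzymes that build or trim heparan sulfate, a sugar chain that binds many of these ligands, 4 were higher and 6 lower. Ndst4 read 9.15, 9.13 and 9.14 in CA1 and 5.90, 6.45 and 6.32 in CA2, and Ndst3 8.40, 8.73 and 8.57 against 6.04, 6.20 and 6.21. Both encode enzymes that start sulfation of the chain, and the differences were -2.92 and -2.42. Among the sulfotransferases that act later, Hs6st3 fell by 1.55 and Hs6st2 by 0.74, while Hs3st4 rose by 0.93 and Hs6st1 by 0.69, the last call lost in 1 alternative. The 4 were 1 to 2 without CA1 array 3, CA2 array 3 or replicate number 2 or 3.

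Of 24 immediate early genes, which neurons transcribe after activity, 11 were lower and 2 higher, with a median of -0.40. Npas4 read 8.07, 8.56 and 8.95 in CA1 and 6.92, 7.28 and 7.56 in CA2, and Nr4a1 9.35, 9.81 and 10.29 against 8.30, 8.53 and 8.83. The arrays varied more for these genes than for most, yet the regions did not overlap. Arc, whose RNA is carried to active synapses, read 8.94, 9.35 and 10.01 against 8.15, 8.38 and 8.35 (-1.14, adjusted p = 0.00086). The kinase gene Plk2 fell by 1.03. Ptgs2 (cyclooxygenase 2) went the other way, from 8.26, 8.24 and 8.30 to 9.93, 9.79 and 9.87, and was the 1 of the 2 that stayed called without any single replicate number. Tissue was taken in a window of 2 hours late in the light phase, per the protocols.

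Of 20 neuropeptide and secretory genes, 5 were higher (2 without replicate number 2) and 4 lower (2 without number 1). Scg2, a granin of secretory granules, fell from 9.98, 9.93 and 9.95 to 8.50, 8.54 and 8.50, while another granin gene, Chgb, rose by 0.50. The enkephalin gene Penk fell by 1.07 and Adcyap1, which encodes the peptide PACAP, rose by 0.53.

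Mitochondrial genes differed by small amounts, none of the members below by 2-fold. Of 9 genes listed around the mitochondrial calcium uniporter, which lets calcium into the matrix, 4 were higher and 1 was lower. The 4 were 2 without CA1 array 1 or 3, or replicate number 1 or 2, and the 1 was 0 without any single cell body array. Called members outside the uniporter itself were Vdac3 (0.49), Vdac2 (0.27) and Letm1 (-0.31). Mcu, the pore, read 7.35, 7.36 and 7.34 in CA1 and 8.20, 8.33 and 8.46 in CA2, a difference of 0.98 (SE 0.08, adjusted p = 2.5e-05), and the regulator gene Mcur1 rose by 0.86. Of 17 TCA cycle and pyruvate oxidation enzymes, 9 were higher and none lower, with a median of 0.25. They included Pdha1 (0.57), Dlat (0.56), Sucla2 (0.55) and Dld (0.51), and the count was 4 to 5 without CA2 array 3 or replicate number 2 or 3. Of 15 glycolysis enzymes (33.3% called), 5 were higher and none lower, with Pgk1 at 0.48 and Pfkm at 0.46. The median level of the glycolysis list lay in the brightest bin, where 44.9% of genes were called.

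Of 65 nuclear genes of the respiratory chain and ATP synthase, 14 were higher and 4 lower, and the median of 0.04 was close to that of all genes (0.02). The share called was 27.7%, against 21.1% of all genes and 44.9% of the brightest bin, where the median level of this list lay. Ndufa9 rose by 0.58 and Ndufs1 by 0.56, and Ndufb10 fell by 0.46 and Cox8a by 0.39, and the 4 were 2 without any single replicate number. The count of 14 ranged from 4 (without replicate number 2 or 3) to 10 across omissions of 1 cell body array or replicate number, was 8 without the arrays with oocyte transcripts and 24 under each other scaling. Of 75 mitochondrial ribosomal protein genes (28.0% called), 17 were higher (8 without number 2 or 3, 11 without number 1) and 4 lower (0 without any single number). Their median level also lay in the brightest bin, where 44.9% of genes were called. Mrpl49 was at 0.75 and Mrpl42 at 0.68. Of 34 cytosolic ribosomal protein genes, 16 were lower and none higher, with a median of -0.18 (-0.09 and -0.08 under the other scalings). Rpl35 read 11.82, 11.77 and 11.64 in CA1 and 11.17, 11.20 and 11.24 in CA2, and Rpsa fell by 0.51. The 16 were 8 to 10 without any single replicate number, and 10 and 9 under the other scalings.

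The dendritic layers of the same mice, on arrays that do not enter the cell body differences, gave a second view of the regions. They have the same run numbers, and all 12 arrays gave 1 shared estimate of spread, which enters the calls of both layers. In that layer 30.2% of genes were called. Of the 268 genes at least 2-fold higher in CA2 cell bodies, 158 (59.0%) were also called higher in the CA2 dendritic layer, where 11.6% of all genes were, and 6 were called lower. Of the 359 at least 2-fold lower, 144 (40.1%) were also called lower, where 18.6% of all genes were, and 8 were called higher. The differences were smaller in the dendritic layer for 261 and 350 of them, with medians of 1.33 against 0.40 and -1.32 against -0.43. These genes were picked for a large difference in the cell body layer. The dendritic calls depended on the arrays used. Their number of 9105 was 1918 without the 3 arrays with oocyte transcripts, which leaves 1 CA2 dendritic array whose spread is assumed to be like that of the others, 3109 on the 2 dendritic groups alone, 3663 without replicate number 2, 4516 without number 1 and 5505 without CA2 dendritic array 2. With those 3 arrays left out, 70 of the 268 were called higher (26.1%, against 3.40% of all genes) and 76 of the 359 lower (21.2%, against 2.96%). Without number 2 these were 99 (36.9%, against 5.54%) and 115 (against 6.62%), and without number 3 the 359 gave 91 (25.3%, against 11.5%).

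**Figure D5:**
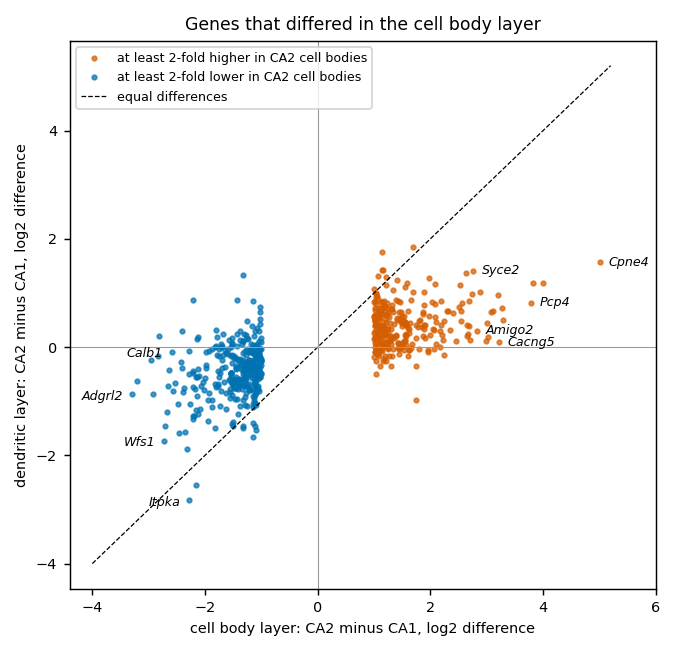
Log2 difference between CA2 and CA1 in the cell body layer (x axis) and in the dendritic layer (y axis) for the 627 genes called and at least 2-fold different in the cell body layer, with a dashed line at equal differences. Most points lie closer to 0 on the y axis than on the x axis, and Itpka lies below the dashed line.

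Individual genes differed in how far the region difference extended. Cpne4 differed by 5.01 in cell bodies and 1.57 in the dendritic layer, and Syce2, a gene best known from meiotic chromosomes, by 2.76 and 1.41. Cacng5, by contrast, differed by 3.21 and 0.09, and the interaction of region and layer was -3.12 (adjusted p = 4.2e-06). Acan (1.65 and -0.02) and Rgs14 (1.17 and 0.06) likewise were not called in the dendritic layer, with interactions of -1.67 and -1.11 (adjusted p = 1.8e-05 and 0.00013). Avpr1b was higher in CA2 cell bodies by 1.21 and lower in the CA2 dendritic layer by -0.26 (adjusted p = 0.013). Its dendritic levels were low, 6.11 ± 0.07 in CA1 and 5.85 ± 0.02 in CA2. The 95th percentile of the negative normalization features was 8.20 and 8.06 there, and the median dendritic difference over all genes was -0.11. No reversal is therefore read from this gene. Among the genes lower in CA2, Wfs1 differed by -2.72 and -1.73, and Calb1 by -2.59 and -0.08 (adjusted p = 0.79). Itpka, whose RNA is known from dendrites, was the 1 of the 30 leading genes with a larger difference in the dendritic layer, -2.28 against -2.83, with an interaction of -0.55 (adjusted p = 0.031). Of the 24 CA2 markers 9 were higher and 2 lower in the dendritic layer (median 0.18), and of the 14 CA1 markers 8 were lower and 2 higher (median -0.68).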

How the data were processed

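RNA of 12 laser-captured samples (4 groups of 3) was amplified and hybridized to Affymetrix whole-transcriptome arrays. The authors deposited log2 values made with RMA, per the submitters' processing notes; the sources used here give no version (not given in the sources used here). The table held 72688 features. Of these, 30604 had 1 gene symbol in the platform annotation, 2146 had several and 39938 had none. Through Entrez identifiers 22818 were matched to RefSeq, which changed 827 symbols. Where a gene had more than 1 feature (355 genes), the one with the highest mean over 12 arrays was kept, leaving 30142 genes.

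All 12 arrays were fitted with limma 3.58.1 (lmFit, eBayes) in R 4.3.3 with a mean per group (4) and replicate number as block (6 residual degrees of freedom). Tests were two-sided and called at an adjusted p under 0.05 (Benjamini-Hochberg over all genes). The script was tested on simulated data. Precision is limited by how many arrays there are, since arrays have no read depth. The p-values measure the spread between these arrays. Mice came from separate litters, but no label says that a number stands for a mouse.

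Named genes are the 15 largest rises and falls called with no overlap and the same sign in all pairs (without predicted genes, small RNAs and sensory receptors), the members of the region marker lists, and up to 4 called members per direction of other lists. The members and 39 gene lists were chosen with earlier results of these data known. Lists are described by counts and medians, without tests. Alternatives were other scalings, filters, feature rules, fits and omitted arrays.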

Additional observations from a re-analysis of the deposited data

Results flagged for a closer look

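Region differences that were not equal in the layers are given here. Each value is the CA2 minus CA1 difference in the dendritic layer minus that in the cell body layer (log2, limma), and each was called. The genes were picked for their cell body difference, which enters this value, so they are a description.

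Among the 15 largest rises the values were -3.43 for Cpne4, -2.81 for Mctp1, -2.63 for Nrip3, -2.97 for Pcp4, -2.79 for Fstl5, -2.54 for Lrrtm4, -3.12 for Cacng5, -2.23 for Ccdc3, -2.45 for Kctd4, -2.42 for Map3k15, -2.84 for Sostdc1, -2.56 for St8sia6, -2.86 for Tmem215, -1.86 for Prdm8 and -2.53 for Amigo2. All were negative. Among the 15 largest falls they were 2.42 for Adgrl2, 2.59 for C1ql3, 2.71 for Man1a, 2.05 for Ndst4, 0.99 for Wfs1, 1.93 for Kcnh7, 2.21 for Ldb2, 2.51 for Calb1, 1.75 for Ccn3, 2.15 for Cd34, 2.02 for Ndst3, 1.57 for Cds1, 1.78 for Sorcs3, 2.20 for Plekhg1 and -0.55 for Itpka, the 1 negative value of this group.

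Of all genes called higher in CA2 cell bodies 1026 had a called difference between the layers, and of those called lower 930. Over all 30142 genes 11.6% were called for this difference. Without the 3 arrays with oocyte transcripts 699 genes were called for it in place of 3504.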

How the results depend on the processing

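The differences of the named genes kept their direction in every alternative run for the cell body comparison, except 10 values of 4 genes that were not called. Camk2a was 0.0312 and Lefty1 0.0029 after quantile normalization, and Lefty1 was 0.0267 after median centring. Without replicate number 2, Mbp was -0.07, Lefty1 0.05 and Prox1 -0.11. Without CA1 cell body array 2, Mbp was -0.04 and Lefty1 0.03, and without CA2 cell body array 2, Mbp was -0.0033 and Prox1 -0.08. Over omissions of 1 array or number Mbp ranged from -0.07 to 0.2067, Lefty1 from -0.175 to 0.05 and Prox1 from -0.11 to 0.285. Of the 246 called genes under the naming rule, 193 were called in every alternative run and 53 lost the call in 1 or more. Against 3205 genes called higher, 5722 were after quantile normalization, 6273 after median centring and 4827 with array weights. The brightest 20% of genes gave 3346 calls (1788 higher, 1558 lower, 100 and 127 at least 2-fold), 3553 in the dendritic layer and 1960 for the interaction. Every feature gave 11487, with 7660 lower, and 483 higher and 2084 lower at least 2-fold. Without 1 cell body array or replicate number the cell body count ranged from 3451 to 4890 (higher 1716 to 2451, lower 1735 to 2439), and without 1 dendritic array from 6176 to 6743. Without 1 dendritic array or number the dendritic count ranged from 3663 to 9706 and, without any 1 array or number, the interaction from 697 to 4878. The dendritic count of 9105 was 3109 on its 2 groups alone, 5579 with array weights and 1918 without the arrays with oocyte transcripts, when the interaction gave 699. Same-numbered CA1 and CA2 cell body arrays deviated from their group means with correlations of -0.0586, -0.0206 and 0.0119. For same-numbered cell body and dendritic arrays these were 0.1315, 0.0861 and -0.0303 in CA1 and -0.3463, -0.1487 and -0.2406 in CA2. The numbers were thus not shown to pair the arrays. With no replicate block 6864 genes were called, 6204 of them as with the block, and the counts were 3493 higher, 3371 lower, 10138 in the dendritic layer and 4387 for the interaction. Region and run cannot be told apart under any setting.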

Other observations

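The kinds of RNA did not split evenly between the regions. Of 18815 genes that RefSeq lists as protein coding, 4303 were called in the cell body layer, and 62.6% of these were higher in CA2. The share called was 22.9%, against 21.1% of all genes. Of 2288 long non-coding RNA genes 256 were called (11.2%) and 35.5% of these were higher. Of 556 microRNA genes (17.4% called), 14 were higher and 83 lower in CA2, with a median difference of -0.09. Among 66 small nucleolar RNA genes (24.2% called), 1 was higher and 15 were lower. Of 7741 genes with no RefSeq match (20.3% called), 361 were higher and 1209 lower, and they made up 132 of the 359 genes at least 2-fold lower. These splits were not counted under the other scalings, where 70.4% and 74.3% of all called genes were higher in CA2.

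The share of calls rose with the mean level over the CA1 and CA2 cell body arrays, from 4.61% of the dimmest of 5 equal bins of genes to 44.9% of the brightest. Of the calls in the dimmest bin 18.3% were higher in CA2, against 43.3%, 54.7%, 52.8% and 51.8% in the brighter bins in order. The negative normalization features, whose 95th percentile was 8.09 ± 0.05 in CA1 and 7.77 ± 0.05 in CA2, were also lower on the CA2 arrays.

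Of the oocyte genes, Nlrp14 read 4.04 ± 0.07 in CA1 cell bodies and 5.71 ± 1.86 in CA2 cell bodies, and Zp3, a coat protein of the egg, 5.57 ± 0.07 and 6.57 ± 1.12. All animals were labelled male. Without the 3 arrays where these transcripts read highest, the list median was 0.32. CA2 cell body arrays 2 and 3, which that setting kept, had list means of 5.77 and 5.61, against 5.39 to 5.43 in CA1. Leaving those 3 arrays out thus did not remove the difference in these genes.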
